A study of Rattus norvegicus with 43 samples.

Results

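The prohormone processing and granule genes were 10 genes chosen by name from the annotation of the array: Pcsk1, Pcsk2, Pcsk1n, Cpe, Pam, Chga, Chgb, Scg2, Scg3 and Scg5. Of these, 9 had a probe set annotated to that gene alone, with 11 probe sets between them, among 14217 genes so named. Pcsk1 had no singly named probe set and is named only. The arrays measured RNA of the anterior pituitary of 43 male rats, which were F2 animals from F1 intercrosses after mating COP females with ACI males. Every animal carried a silastic implant with 5 mg diethylstilbestrol (DES), a synthetic estrogen, placed under the skin at 9 weeks of age, was killed 12 weeks later at 21 weeks of age, and had received BrdU, a thymidine analog, at 50 mg/kg in the last 4 hours. No untreated animal and no parental strain was among the arrays, and the animals had been selected as the 22 heaviest and 21 lightest pituitaries of the cross. Which animal was heavy and which light is in none of the labels. The 43 arrays therefore formed 1 group, heavy and light glands were not compared, and the values describe selected animals and not the whole cross. Each array is a separate animal and is named by the number in its label.

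Peptide hormones of the pituitary are stored in dense-core granules. Many are made as larger precursors: the convertases Pcsk1 and Pcsk2 cut them at basic residues inside the maturing granule, carboxypeptidase E (Cpe) trims the exposed basic residues, and the amidating enzyme Pam converts a C-terminal glycine to an amide. Pcsk1n (proSAAS) can inhibit Pcsk1, Scg5 is the chaperone that Pcsk2 needs to mature, and the granins Chga, Chgb, Scg2 and Scg3 take part in packing cargo into granules. Prolactin and growth hormone, the main stored products of lactotrophs and somatotrophs, lose a signal peptide but need no convertase, whereas Pomc of corticotrophs is a convertase substrate.

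Promoter windows of RefSeq on assembly GRCr8, from 250 bases before to 50 bases after the annotated start of the gene, were matched for 8 of the 10 genes. Pcsk1 and Chga had no entry. The 4 printed here belong to the members whose level followed the animal number, as described further on. Capitals mark a cAMP response element (TGACGTCA), its short form (TGACG, or CGTCA on the other strand) and GC boxes (GGGCGG, or CCGCCC on the other strand), and the short form lies within the full element. The windows lie at chr3:151333688-151333987 on the plus strand for Pcsk2, and on the minus strand at chrX:17255356-17255655 for Pcsk1n, chr9:88256817-88257116 for Scg2 and chr8:85322435-85322734 for Scg3. All are written 5′ to 3′ along the gene.
Pcsk2: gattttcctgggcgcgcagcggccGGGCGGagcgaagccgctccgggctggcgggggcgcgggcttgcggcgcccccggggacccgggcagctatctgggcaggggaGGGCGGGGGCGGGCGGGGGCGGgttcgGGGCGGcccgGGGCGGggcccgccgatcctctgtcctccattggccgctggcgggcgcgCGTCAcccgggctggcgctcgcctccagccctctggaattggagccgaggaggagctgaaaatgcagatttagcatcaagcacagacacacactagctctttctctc
Pcsk1n: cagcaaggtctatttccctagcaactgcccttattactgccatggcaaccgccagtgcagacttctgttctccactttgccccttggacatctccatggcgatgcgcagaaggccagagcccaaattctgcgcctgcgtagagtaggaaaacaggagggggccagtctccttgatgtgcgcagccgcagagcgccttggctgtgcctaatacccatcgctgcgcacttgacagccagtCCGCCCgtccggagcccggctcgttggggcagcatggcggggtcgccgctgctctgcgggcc
Scg2: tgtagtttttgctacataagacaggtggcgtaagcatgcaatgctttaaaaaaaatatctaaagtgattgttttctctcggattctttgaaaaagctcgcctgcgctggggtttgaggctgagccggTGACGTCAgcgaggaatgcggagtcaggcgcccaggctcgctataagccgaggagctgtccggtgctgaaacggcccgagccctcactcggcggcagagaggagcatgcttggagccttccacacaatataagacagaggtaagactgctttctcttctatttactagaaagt
Scg3: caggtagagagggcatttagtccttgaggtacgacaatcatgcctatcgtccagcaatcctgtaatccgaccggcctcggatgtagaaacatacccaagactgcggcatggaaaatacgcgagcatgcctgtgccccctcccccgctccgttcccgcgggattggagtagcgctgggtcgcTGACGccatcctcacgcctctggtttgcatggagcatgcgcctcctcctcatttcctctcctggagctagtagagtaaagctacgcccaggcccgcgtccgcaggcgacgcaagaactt

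The full cAMP response element was found in Scg2 alone among the 8 windows, beginning at position -123 from the start, and in 1.83% of the 33469 promoter windows of the table. Its short form was present in 6 of the 8 (Pcsk2, Cpe, Pam, Scg2, Scg3 and Scg5), against 21.2% of all windows. A GC box was present in 6 of the 8 (Pcsk2, Pcsk1n, Cpe, Pam, Chgb and Scg5), against 33.1% of all windows. Pcsk2 held 7 GC boxes, some of which share bases, and Pcsk1n held 1. The estrogen response element GGTCANNNTGACC was in 0.0269% of all windows and in 0 of these 8. These matches describe letters in a window and were not tied to binding or to the levels.

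All 9 measured genes were bright. Their representative probe sets passed the filter on dim values, and the median of their mean log2 intensities lay at the 98.9th percentile of the 15521 probe sets that passed. Brightness is not calibrated between probe sets, so the levels of different genes are not ranked here as amounts of RNA. Most of the genes varied little between animals. The median of their SDs was 0.12 on the log2 scale, against 0.23 over all probe sets that passed. Against the 200 probe sets nearest in brightness, 5 of the 9 SDs lay below the 50th percentile and 2 above the 90th, those of Pcsk2 and Pcsk1n.

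Pcsk2, the convertase, was lowest at log2 9.42 in animal 43, had a median of 10.44 and was highest at 11.41 in animal 9 (probe set 1387155_at, mean 10.43 ± 0.39, SD, n = 43). This is a range of 3.95-fold, the widest of the 9 genes, and its SD lay at the 96th percentile of probe sets of like brightness. Pcsk1n, the convertase inhibitor, ran from 10.58 in animal 4 over a median of 11.38 to 12.02 in animal 38 (1367835_at, 11.33 ± 0.39). The range was 2.71-fold and the SD at the 97th percentile. Scg5, the Pcsk2 chaperone, ran from 14.36 in animal 14 over 14.62 to 14.99 in animal 43 (1367992_at, 14.63 ± 0.12). Its range of 1.55-fold was narrower than that of the enzyme it serves.

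Of the enzymes that act after the convertases, Cpe ran from 14.85 in animal 27 over a median of 15.02 to 15.28 in animal 43 (1386921_at, 15.02 ± 0.10). Pam ran from 13.53 in animal 43 over 13.77 to 13.98 in animal 8 (1367687_a_at, 13.78 ± 0.12). The highest animal was 1.35-fold above the lowest for Cpe and 1.36-fold for Pam. The median intensity of Cpe was 33200, and saturation was not assessed, so a ceiling on the narrow spread of the brightest genes was not tested. Pam had 2 further probe sets, and neither passed the filter. Probe set 1370502_at had a mean of 6.75 ± 0.45 and 1370689_at one of 5.13 ± 0.60, and their r with the bright one was 0.14 and -0.27 over the 43 animals. The results for Pam rest on the bright one.

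Among the granins, Chga ran from 11.20 in animal 43 over a median of 11.74 to 12.13 in animal 12 (1387235_at, 11.70 ± 0.19). Chgb ran from 14.40 in animal 4 over 14.79 to 15.08 in animal 38 (1368034_at, 14.78 ± 0.14). Animal 4 was thus lowest and animal 38 highest for both Chgb and Pcsk1n. Scg2 ran from 14.76 in animal 5 over 15.04 to 15.32 in animal 43 (1368044_at, 15.05 ± 0.11). Scg3, which binds Chga in granules, ran from 13.96 in animal 28 over 14.13 to 14.39 in animal 17 (1368656_at, 14.15 ± 0.10). The SDs of Chga and Chgb lay at the 56th and 62nd percentiles of probe sets of like brightness, and the ranges were 1.90-fold for Chga, 1.61-fold for Chgb, 1.48-fold for Scg2 and 1.35-fold for Scg3.

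**Figure D1:**
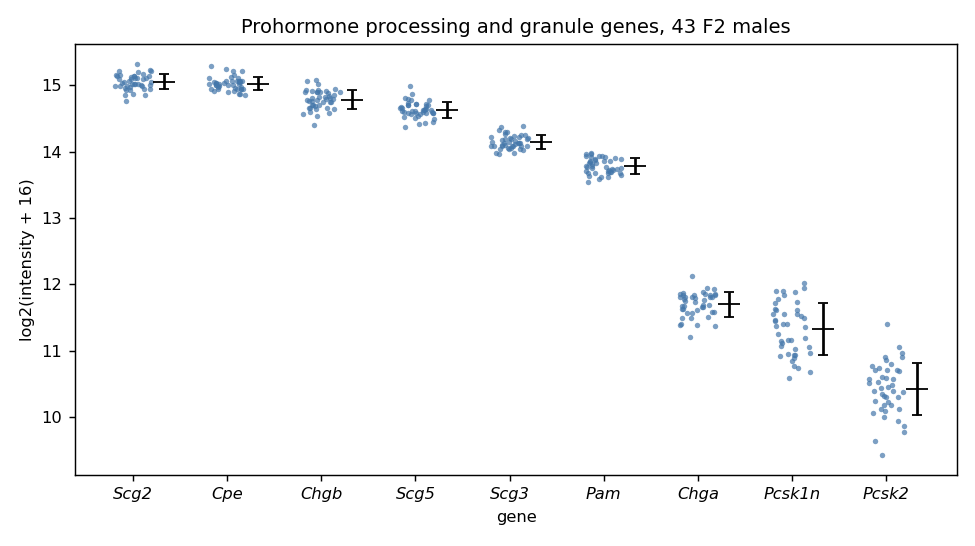
Level of each of the 9 measured genes in the 43 animals, on the log2(intensity + 16) axis; each point is 1 animal and the marks are the mean and SD. Pcsk2 and Pcsk1n, both with an SD of 0.39, are spread more widely than the other 7 genes, whose SDs lie between 0.10 and 0.19.

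Animal 43 held the extreme value of 6 of the 9 genes: it was lowest for Pcsk2, Pam and Chga and highest for Cpe, Scg2 and Scg5. Its array stood apart from the others, with a mean r to the other arrays of 0.927 against 0.967 to 0.976, and the 3′ minus 5′ difference of its actin probe sets was 1.97 on the log2 scale against 1.26 to 1.67. Calls that changed without this animal are named with the adjusted p of the fit without it. The ranges and SDs above include it. Without animal 43 the lowest level of Pcsk2 was 9.638, in animal 41, and its SD was 0.37. The array medians of intensity lay between 122.6 and 141.4.

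The sample holds several cell types, and in a whole gland fewer cells of a type cannot be told apart from less RNA per cell. All 5 gonadotroph markers, both thyrotroph markers, all 4 somatotroph markers and Prl passed the filter. Of 5 corticotroph and melanotroph markers, 3 were named and 0 passed, and of 4 posterior lobe markers 0 passed. The probe set that represented Pomc had a median intensity of 29.2. How well it detects Pomc RNA was not tested, so this dim value does not show that Pomc or corticotrophs were absent. The levels of several lists differed between animals 1 to 22 and animals 23 to 43, a break that was found in these arrays and that no label explains. It leaves 22 and 21 animals, the same sizes as the heaviest and lightest sets of the design, but no label ties an animal to either set and none was assigned. The summed intensity of the gonadotroph markers ran from 669 to 1130 in the former and from 1140 to 1970 in the latter, without overlap. Weight class cannot be told apart here from other differences between these animals.

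Of the 9 genes, 4 followed the animal number in the limma regression, against a background of 26.6% of probe sets called. Pcsk1n and Scg2 rose with the number (13.4% of probe sets were called upward) and Pcsk2 and Scg3 fell (13.2% downward). Pcsk2 fell by 0.0217 ± 0.00345 (SE) log2 per animal number (adjusted p = 6.86e-06, limma). Its median was 10.70 in animals 1 to 22, with a range of 10.30 to 11.41, and 10.19 in animals 23 to 43, with a range of 9.42 to 10.77. Scg3 had medians of 14.20 and 14.08 in these ranges of animals (adjusted p = 0.015 for the trend, limma), with ranges of 14.08 to 14.39 and 13.96 to 14.26.

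Pcsk1n had a median of 11.04 in animals 1 to 22, between 10.58 and 11.73, and of 11.55 in animals 23 to 43, between 10.91 and 12.02. Its slope was 0.0169 ± 0.00391 log2 per number (adjusted p = 0.00106, limma). Scg2 had medians of 14.99 and 15.13 and a slope of 0.00628 ± 0.00126 (adjusted p = 0.000208, limma). The levels of all 4 genes overlapped between the ranges of animals. Within the ranges limma called 0 of the 9 genes along the number (1 in animals 1 to 22 and 2 in animals 23 to 43 at an unadjusted p under 0.05). The r of Pcsk2 with the number was -0.69 over all 43 animals, 0.00 in animals 1 to 22 and -0.48 in animals 23 to 43, and that of Pcsk1n was 0.55 over all, 0.22 and -0.30. Scg2 kept its sign, with 0.69 over all, 0.34 and 0.32, and Scg3 did not, with -0.50 over all, 0.17 and 0.21. For the 5 genes not called the medians of the ranges ran from 14.62 in both for Scg5 to 13.85 and 13.71 for Pam. The call of Scg2 was lost under quantile normalization (adjusted p = 0.419, limma), while the other 3 were called under all 11 alternatives that used both ranges of animals.

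**Figure D2:**
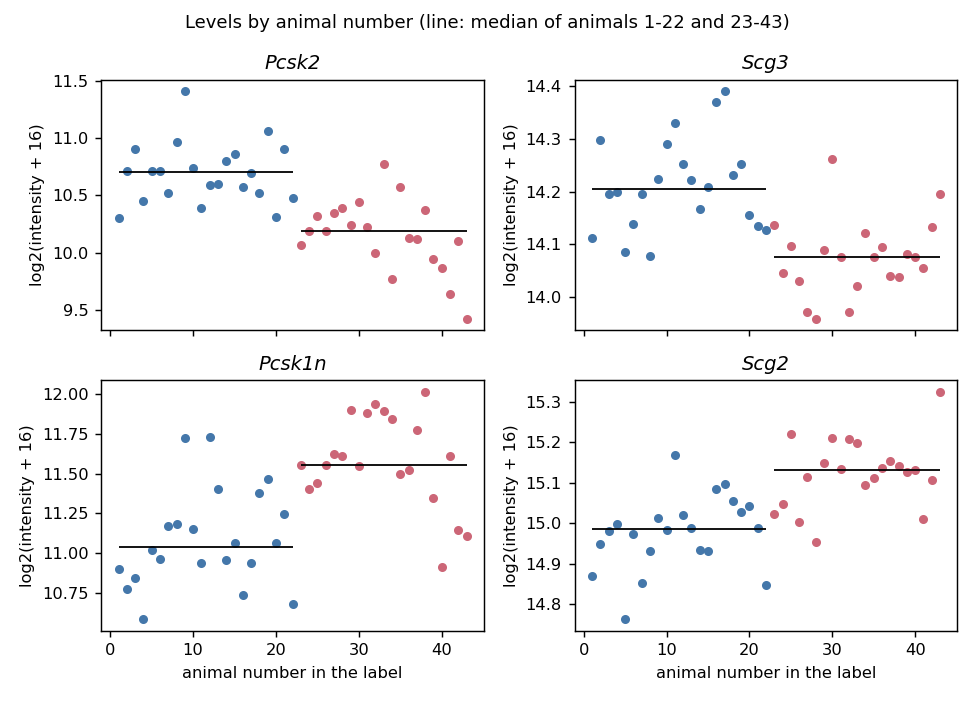
Level of Pcsk2, Scg3, Pcsk1n and Scg2 (log2 axis) against the animal number of the label; each point is 1 animal and the horizontal lines are the medians of animals 1 to 22 and 23 to 43. The medians fall from 10.70 to 10.19 for Pcsk2 and rise from 11.04 to 11.55 for Pcsk1n, and the points of the ranges overlap in every panel.

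Along the thyrotroph score, made from Tshb and Trhr, 8 of the 9 genes were called (background 28.6% of probe sets). Tshb had the larger SD, 0.91 against 0.33 for Trhr, and so counts for more in the score. Whether Trhr marks thyrotrophs alone in these glands was not tested. The permutation p-values here and below treat the animals as exchangeable, although levels differed between the ranges of animals. The genes Pcsk1n, Cpe, Chgb, Scg2 and Scg5 rose with the score (14% of probe sets did), Pcsk2, Pam and Scg3 fell (14.6% did), and Chga had a slope of -0.05 ± 0.05 log2 per unit of the score (adjusted p = 0.528, limma). The median slope of the 9 genes was 0.0908, and that of all probe sets tested was -0.00337. The largest slopes were those of Pcsk1n, 0.47 ± 0.08 (adjusted p = 3.02e-05, limma), and Pcsk2, -0.40 ± 0.09 (adjusted p = 0.00105, limma). Chgb had a slope of 0.14 ± 0.04 (adjusted p = 0.006, limma). The r of Chgb was 0.51 (permutation p = 0.0004, adjusted 0.00173) and rho 0.48 (p = 0.00139, adjusted 0.00523), and r was 0.51 with the 2 animals of most distant score left out, 0.57 in animals 1 to 22 and 0.50 in animals 23 to 43. Scg5 had an r of 0.56 over all (permutation p = 0.00014, adjusted 0.000712), rho of 0.38 (p = 0.0134, adjusted 0.0326), 0.40 without the 2 farthest, and 0.42 and 0.63 within the ranges. Both genes kept a positive r in each range, but limma fits within the ranges called 0 of the 9 genes (1 in animals 1 to 22 and 3 in animals 23 to 43 at an unadjusted p under 0.05), and Scg5 lost its call with the mean of the brightest probe sets, described further on, as a covariate.

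For Pcsk2 the relation to the thyrotroph score did not hold within the ranges. Its r was -0.55 over all animals (permutation p = 0.00017, adjusted 0.000796), rho -0.61 (p = 2e-05, adjusted 0.000167) and r -0.52 without the 2 farthest, but -0.12 in animals 1 to 22 and 0.01 in animals 23 to 43. With a step between animals 22 and 23 as a covariate, 2 of the 9 genes were called, Chgb and Scg5, and with a smooth trend over the number 4 were called, those 2 with Pcsk1n and Pam. Under quantile normalization the count was 4 and the calls of Chgb and Scg5 were lost (the highest adjusted p over the alternatives was 0.656 and 0.765, limma). Cpe kept its call under 5 of 13 alternatives and lost it without animal 43 (adjusted p = 0.066, limma) and without animal 38 (0.0524), and Scg3 lost its call without animal 38 (0.0626).

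Along the gonadotroph score, from Fshb, Lhb, Gnrhr, Nr5a1 and Foxl2, 5 of the 9 genes were called (background 23%, with 11.7% rising and 11.3% falling). Pcsk1n rose by 0.61 ± 0.09 log2 per unit (adjusted p = 9.07e-07, limma) and Scg2 by 0.14 ± 0.04 (adjusted p = 0.00632, limma). Pcsk2 had a slope of -0.61 ± 0.09 (adjusted p = 1.71e-06, limma), Scg3 of -0.14 ± 0.03 (adjusted p = 0.00189, limma) and Pam of -0.13 ± 0.04 (adjusted p = 0.0143, limma). The score fell into separate clusters of 28 and 15 animals, the smaller all from animals 23 to 43, so no r over all animals is given. The larger cluster held all of animals 1 to 22 and 6 of animals 23 to 43, so its r still spans the break. Within the larger cluster r was -0.43 for Pcsk2 (permutation p = 0.02, adjusted 0.0444; rho -0.47, p = 0.0127, adjusted 0.0324) and 0.56 for Pcsk1n (permutation p = 0.0028, adjusted 0.00885; rho 0.50, p = 0.00746, adjusted 0.0218). Without the 2 farthest animals these were -0.40 and 0.49. In the smaller cluster r was -0.34 and 0.43 for these genes (adjusted p = 0.283 and 0.17, permutation test), and -0.03 and 0.50 without the 2 farthest. Pam went against its negative slope there, with an r of 0.69 (permutation p = 0.00474, adjusted 0.0135; rho 0.72, p = 0.00385, adjusted 0.0119) and 0.71 without the 2 farthest, while its r in the larger cluster was -0.32 (adjusted p = 0.158, permutation test). With the step or the smooth trend as a covariate, limma called 0 of the 9 genes (3 at an unadjusted p under 0.05 in each). The call of Pam was also lost when all its probe sets were averaged.

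Along the somatotroph score, from Gh1, Ghrhr, Ghsr and Dlk1, 4 of the 9 genes were called (background 16.8%): Pcsk1n and Scg2 rose (8.89% of probe sets did), Pcsk2 and Scg3 fell (7.88% did). The r of Pcsk1n with this score was 0.74 (permutation p = 1e-05, adjusted 9.75e-05), rho 0.73 (p = 1e-05, adjusted 0.000146) and r 0.71 without the 2 farthest animals. It was 0.41 in animals 1 to 22 and 0.60 in animals 23 to 43, whereas the r of Pcsk2 was -0.52 over all and 0.11 and 0.15 within the ranges. The folliculostellate and stem cell score, of cells that store no hormone granules, was made from the 3 of 5 markers that passed the filter and also gave 4 of 9 (background 16.8%). Pcsk1n, Chgb and Scg2 rose with it (8.75% of probe sets did) and Pcsk2 fell (8.05% did). The call of Chgb with this score was lost without animal 38 (adjusted p = 0.0613, limma), and without animal 43 Chgb passed with the somatotroph score (0.0408). For both scores limma called 0 of the 9 genes with the step or the smooth trend as a covariate (at an unadjusted p under 0.05, 1 and 1 for the somatotroph score and 3 and 1 for the other).

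Pcsk2 was lower and Pcsk1n higher along each of these 4 cell type scores, and the summed marker intensities of all 4 had higher medians in animals 23 to 43: 1660 against 928 for the gonadotroph list, 12900 against 6670 for the thyrotroph, 43700 against 30100 for the somatotroph and 2050 against 1540 for the folliculostellate list. The summed intensities of corticotroph and melanotroph markers had medians of 200 in animals 1 to 22 (115 to 286) and 343 in animals 23 to 43 (170 to 491). None of these markers passed the filter, so these are sums of dim values. The posterior lobe sums were 117 (55.7 to 219) and 136 (82.9 to 264). Their part in the levels of Pcsk2 was not tested.

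**Figure D3:**
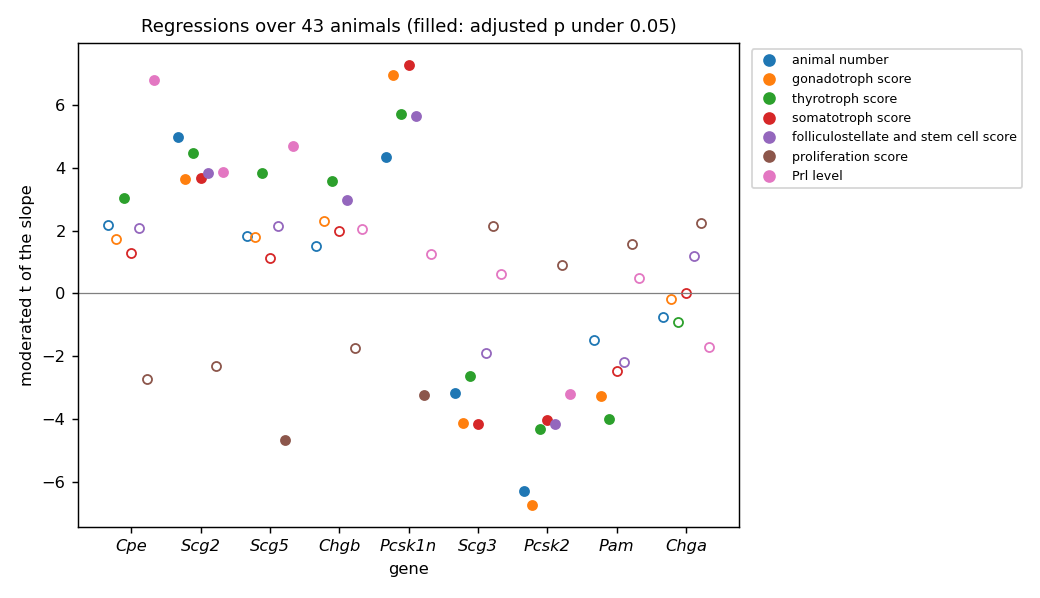
Moderated t of each of the 9 genes in the 7 limma regressions on cell type scores, the proliferation score, the Prl level and the animal number; filled points passed an adjusted p of 0.05. Pcsk1n and Pcsk2 lie on opposite sides of 0 in the regressions on the 4 cell type scores and on animal number, and Chga is filled in none.

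Along the proliferation score, from 9 genes of dividing cells, 2 of the 9 granule genes were called and both fell (background 10.8% in either direction, 4.87% downward). Scg5 had a slope of -0.32 ± 0.07 log2 per unit (adjusted p = 0.00239, limma) and Pcsk1n of -0.69 ± 0.22 (adjusted p = 0.0303, limma). The r of Scg5 was -0.65 (permutation p = 2e-05, adjusted 0.000167), rho -0.57 (p = 8e-05, adjusted 0.00052), -0.50 without animals 38 and 43, and -0.44 and -0.72 within the ranges. The r of Scg5 was thus negative in each range, but within the ranges limma called 0 of the 9 genes (0 in animals 1 to 22 and 2 in animals 23 to 43 at an unadjusted p under 0.05). Pcsk1n lost its call without animal 38 (adjusted p = 0.11, limma), where the count was 1, and with the step or the smooth trend as a covariate. Both calls were lost when the mean of the brightest probe sets was a covariate, and that of Scg5 also under quantile normalization.

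Along the level of Prl, the hormone of lactotrophs, 4 of the 9 genes were called (background 19.1%). Cpe, Scg2 and Scg5 rose with it (7.82% of probe sets did) and Pcsk2 fell (11.3% did). Cpe rose by 0.61 ± 0.09 log2 per log2 of Prl (adjusted p = 7.98e-06, limma). Its r was 0.85 (permutation p = 1e-05, adjusted 9.75e-05), rho 0.85 (p = 1e-05, adjusted 0.000146), 0.83 without the 2 farthest, and 0.79 and 0.87 within the ranges, the closest relation of any of the 9 genes to Prl. Scg5 had an r of 0.65 (permutation p = 2e-05, adjusted 0.000167; rho 0.53, p = 0.00032, adjusted 0.00156), 0.54 without the 2 farthest, and 0.61 and 0.63 within the ranges. Without animal 43 only Cpe was called, since Scg2 (adjusted p = 0.295, limma), Scg5 (0.162) and Pcsk2 (0.636) lost their calls, and under quantile normalization limma called 0 (1 at an unadjusted p under 0.05). Within animals 1 to 22 limma called 0 along Prl (4 at an unadjusted p under 0.05). Within animals 23 to 43, which include animal 43, 3 of the 4 calls held and 1 further gene was called. The Prl probe set had a median intensity of 50900, above that of Cpe, and a ceiling on its spread was not tested.

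Several of the genes also varied with bright probe sets at large, Cpe and Scg5 most closely. The 3 named genes nearest to Cpe were Rps6 (r = 0.92), Rpl5 (0.86) and COX1 (0.86), and those nearest to Scg5 were Rpl34 (0.80), Rpl5 (0.76) and Sub1 (0.73), of which Rps6, Rpl5 and Rpl34 are ribosomal proteins and COX1 a mitochondrial respiratory subunit. The mean log2 of the 100 brightest other probe sets was therefore computed for each array, after these values were seen. It ran from 14.80 to 15.39, was highest in animal 43, and had a mean of 14.99 ± 0.11. The r of this mean was 0.84 with Cpe (permutation p = 1e-05, adjusted 9.75e-05; rho 0.77, p = 1e-05, adjusted 0.000146), 0.74 with Scg5 (p = 1e-05, adjusted 9.75e-05; rho 0.57, p = 6e-05, adjusted 0.000413) and 0.67 with Scg2 (p = 1e-05, adjusted 9.75e-05; rho 0.61, p = 4e-05, adjusted 0.000292). Without the 2 farthest animals these were 0.78, 0.61 and 0.59, and within the ranges 0.75 and 0.88 for Cpe, 0.77 and 0.67 for Scg5, and 0.50 and 0.64 for Scg2. Pcsk2 had a negative r of -0.47 with this mean (permutation p = 0.00167, adjusted 0.00592; rho -0.45, p = 0.00231, adjusted 0.00819), -0.34 without the 2 farthest, and 0.12 and -0.54 within the ranges. Chga had an r of -0.39 (permutation p = 0.0104, adjusted 0.0282; rho -0.24, p = 0.117, adjusted 0.196), -0.10 without the 2 farthest, and 0.01 and -0.71 within the ranges. Prl itself had an r of 0.86 with this mean, and 0.79 without animal 43. With the mean as a covariate, the limma regressions called 0 of the 9 genes along Prl and 0 along proliferation (1 and 4 at an unadjusted p under 0.05), 5 along the thyrotroph score and 4 along animal number. The genes named as nearest to Cpe and Scg5 all lost their limma calls under quantile normalization. All but Rps6 also lost theirs with the mean as a covariate.

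**Figure D4:**
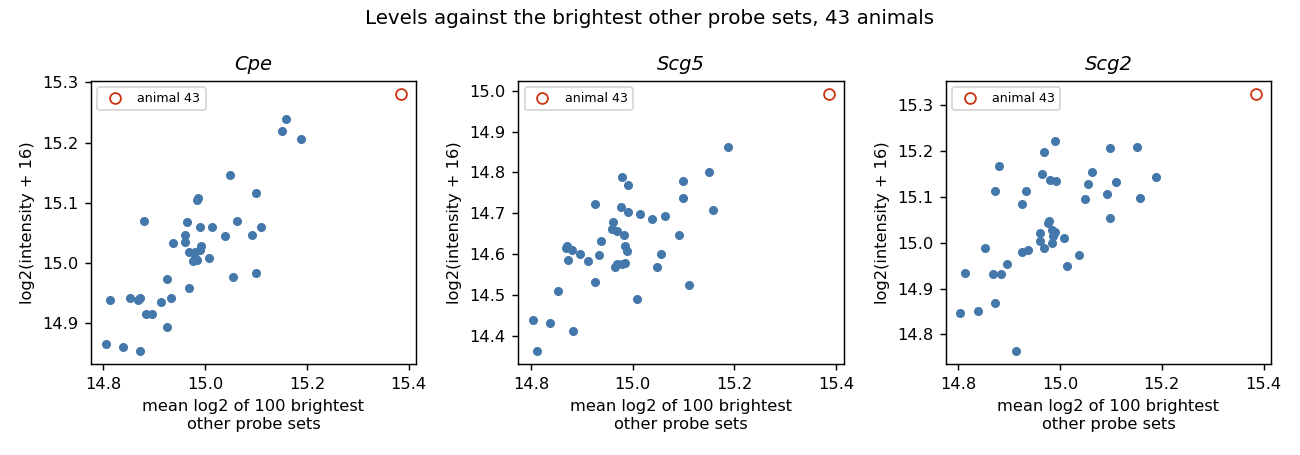
Log2 level of Cpe, Scg5 and Scg2 against the mean log2 of the 100 brightest other probe sets of the same array; each point is 1 of 43 animals and animal 43 is the open point. The r values, over all 43 animals, are 0.84, 0.74 and 0.67, and animal 43 lies at the upper right of each panel.

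Among the 36 pairs of the 9 genes, 7 were called in both of their regressions, 5 of them positive and 2 negative. The share of all probe sets called in the regression on a gene differed widely: 27.5% for Pcsk2, 14.5% for Pcsk1n, 5.22% for Cpe, 6.78% for Pam, 10.7% for Chga, 0.831% for Chgb, 21.9% for Scg2, 9.86% for Scg3 and 17% for Scg5. The positive pairs were Pcsk1n with Chgb, Pcsk1n with Scg2, and the 3 pairs among Cpe, Scg2 and Scg5. The negative pairs were Pcsk2 with Scg2 and Pcsk1n with Scg3. Each of the 5 positive pairs lost its call under quantile normalization, as did Pcsk2 with Scg2. Pcsk1n with Chgb kept its call under 7 of 13 alternatives run over both ranges of animals. Cpe and Scg5 had an r of 0.68 (permutation p = 1e-05, adjusted 9.75e-05; rho 0.53, p = 0.00029, adjusted 0.00153), 0.60 without the 2 farthest, and 0.63 and 0.66 within the ranges. Pcsk1n and Chgb had an r of 0.57 (permutation p = 0.00012, adjusted 0.000669; rho 0.54, p = 0.0003, adjusted 0.00153), 0.47 without the 2 farthest, and 0.59 and 0.50 within the ranges. Without animal 38 the pairs of Pcsk1n with Chgb (adjusted p = 0.0572, limma) and with Scg2 (0.067) were lost, and without animal 43 those of Scg2 with Pcsk2 (0.106) and with Scg5 (0.0791). Neither negative pair was called with the step or the smooth trend, and with the mean of the brightest probe sets as a covariate 1 positive and 1 negative pair was called, Pcsk1n with Chgb and Pcsk1n with Scg3.

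The convertase Pcsk2 and its chaperone Scg5 were not a called pair, with an r of -0.27 (permutation p = 0.079, adjusted 0.136; rho -0.15, p = 0.335, adjusted 0.425), -0.11 without the 2 farthest, and -0.08 and -0.10 within the ranges. For other pairs the sign turned. Pcsk2 and Pcsk1n had an r of -0.21 over all animals (permutation p = 0.174, adjusted 0.238; rho -0.28, p = 0.0641, adjusted 0.113), -0.37 without the 2 farthest, but 0.47 in animals 1 to 22 and 0.40 in animals 23 to 43. Scg2 and Scg3 had an r of -0.09 over all (permutation p = 0.565, adjusted 0.642; rho -0.19, p = 0.212, adjusted 0.302), -0.18 without the 2 farthest, and 0.72 and 0.41 within the ranges. The members of each of these pairs differed in opposite directions between the ranges. None of these 3 pairs was called.

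**Figure D5:**
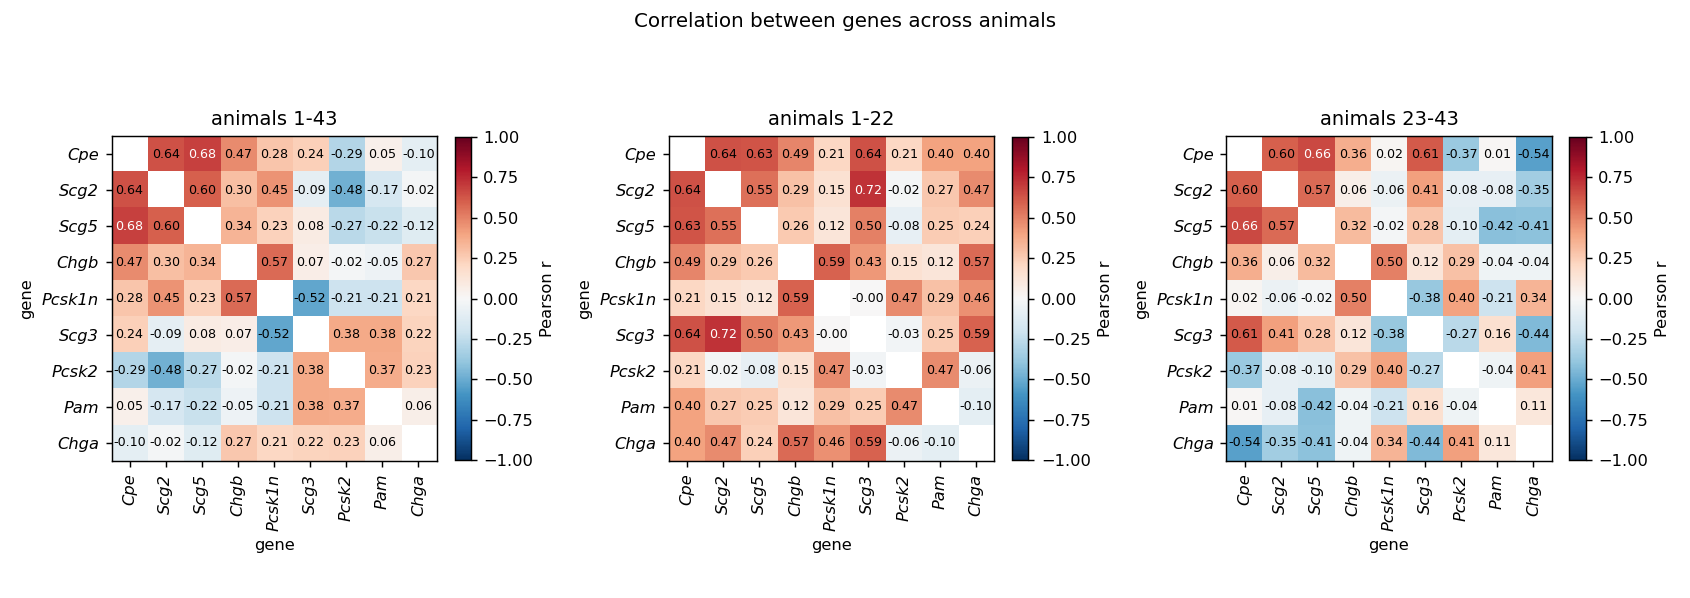
Pearson's r between the 9 genes over all 43 animals, over animals 1 to 22 and over animals 23 to 43, as colour and printed value in each cell. The cell of Pcsk2 and Pcsk1n turns from -0.21 over all to 0.47 and 0.40, while that of Cpe and Scg5 is 0.68, 0.63 and 0.66.

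The genes outside the group nearest to the other members differed from gene to gene, by the moderated t over the 43 animals. For Pcsk2 they were Sncb (r = 0.80), Dusp26 (0.81) and Podxl2 (0.78). For Pcsk1n they were Clu (0.83), Tspan7 (0.82) and Gstm7 (0.81), and Clu, the secreted chaperone clusterin, was also nearest to Chgb (0.68), followed by Fkbp5 (0.65) and Rmnd5b (0.64). Pam was nearest to Ptprn (0.71), a membrane protein of dense-core granules, then to Zdhhc8 (0.65) and Dpp6 (0.65). Scg2 was nearest to the calcium-binding S100g (0.77), to the carbonic anhydrase Car2 (0.75) and to Cga (0.71), the shared subunit of the glycoprotein hormones. Chga was nearest to Gaa (0.73), Nmt1 (0.74) and Dnajc2 (0.69), and Scg3 to Lta4h (0.70), Ccdc181 (0.70) and Plac9 (0.69). These r values describe arrays that share scaling and animal order, and have no p of their own. With a smooth trend over the number as a covariate, the genes named for Pcsk2, Chga, Chgb, Scg2 and Scg3 all lost their limma calls. Those named for Pam lost theirs when all its probe sets were averaged. Those named for Pcsk1n kept theirs under every alternative run over both ranges of animals.

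Of 14 further processing enzymes (other convertases, carboxypeptidases, cathepsins, glutaminyl cyclases and tyrosylprotein sulfotransferases), 11 passed the filter. Along the thyrotroph score 0 of the 11 rose and 6 fell with limma (0 and 7 at an unadjusted p under 0.05), against 14% and 14.6% of all probe sets. The 3 with the lowest moderated t were the metallocarboxypeptidase Cpz, with a slope of -0.55 ± 0.08 (adjusted p = 1.66e-06, limma), the convertase Pcsk6, -0.20 ± 0.04 (adjusted p = 0.000138, limma), and the sulfotransferase Tpst1, -0.24 ± 0.06 (adjusted p = 0.00173, limma). With the step as a covariate Cpz and Tpst1 lost their calls, and Tpst1 also when probe sets were averaged, while Pcsk6 was called under all 13 alternatives over both ranges of animals. With animal number, 4 of the 11 fell and 0 rose (6 and 0 at an unadjusted p under 0.05, background 13.2% and 13.4%), led by Cpz (adjusted p = 5.42e-07, limma), Pcsk7 (0.00423) and Pcsk5 (0.0108). Along the gonadotroph, somatotroph and folliculostellate scores and the Prl level 0 of the 11 rose, also unadjusted. In the same order 4, 3, 1 and 1 fell in limma (background downward 11.3%, 7.88%, 8.05% and 11.3%). Along the proliferation score 4 of the 11 rose and 0 fell in limma, also unadjusted (background 5.96% and 4.87%). Pcsk7 passed narrowly among these (adjusted p = 0.0492, limma). The proliferation score was lowest in animals 38 (-0.91) and 43 (-0.57), and these counts are not given without them.

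Of 28 genes of the granule membrane and of exocytosis, 21 passed the filter. Along the thyrotroph score 3 rose and 6 fell, against 14% and 14.6% of all probe sets, so the share that rose was near the background. Those that rose were Sytl4, a Rab effector on granules, by 0.88 ± 0.09 (adjusted p = 3.18e-09, limma), the small GTPase Rab3b by 0.62 ± 0.08 (adjusted p = 3.32e-08, limma) and the vesicle protein Syp by 0.11 ± 0.04 (adjusted p = 0.0397, limma). Vgf, a granin-like precursor, had a slope of -0.40 ± 0.07 (adjusted p = 7.07e-05, limma), followed by Hid1 (adjusted p = 0.0131, limma) and Rab3d (adjusted p = 0.0135, limma). With animal number 3 of the 21 rose and 3 fell, near the background of 13.4% and 13.2%: Sytl4, Rab3b and Rph3al rose, and Vgf, Rab27b and Rab3d fell. Along the proliferation score 2 of the 21 rose and 2 fell (background 5.96% and 4.87%). Sytl4 kept its call with the thyrotroph score under all 12 alternatives run over both ranges, Rab3b and Vgf lost theirs with the step as a covariate, and Syp kept its call under 6 of 13, Rab3d under 9 and Hid1 under 11. Without animal 43 the calls of Hid1 (adjusted p = 0.104, limma) and Rab3d (0.0877) with this score were lost, as were those of Rab3d (0.125) and Rph3al (0.0576) with the number, and without animal 38 those of Syp with the score (0.107) and Rab3d with the number (0.0568).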

How the data were processed

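Anterior pituitary RNA of 43 rats was labelled with biotin and hybridised to 1 array per animal. The authors deposited a linear intensity for each probe set, scaled to a trimmed mean (2% off each end) between 499.28 and 500 on every array. Which software made these values from the single probes was not given in the sources used. Values were not rescaled and were analysed as log2(intensity + 16), which understates differences of dim probe sets. Saturation and the detection of single probes were not assessed, and the number of arrays limits the precision. No columns were identical.

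A probe set was named where the platform annotation gave 1 gene symbol (20826 of 31042 probe sets that were not controls, 14217 genes). The probe set with the highest mean log2 represented a gene. The filter kept the 15521 probe sets whose mean log2 exceeded the median, 7.16. A score was the mean of the centred log2 values of the marker genes of a list that passed, and no gene of the granule group was in a score. Probe sets were regressed on each score, on the Prl level, on the animal number and on the level of each granule gene with limma 3.58.1 (lmFit and eBayes) in R 4.3.3, leaving out the probe sets that made the measure, with Benjamini-Hochberg adjustment over all others and a threshold of 0.05. A pair of granule genes was called where it passed in both fits. Pearson's r and Spearman's rho had 2-sided permutation p-values (100000 permutations, Python 3.11.15 and numpy 2.4.6), adjusted over 117 relations. The smallest p that these permutations can give is 1e-05. No pooled r was computed for a measure that fell into separate clusters (Bayesian information criterion better by more than 10 for a mixture of 2 normal components, mclust 6.1.1), as the gonadotroph score did. The fits were also run on simulated data with independent normal noise in each probe set. Those data held neither shared scaling nor a break between animals, so they do not show how the fits perform on these arrays.

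The members, the gene lists and the tests were chosen with earlier results of these data known, among them that arrays of neighbouring animal numbers are alike and differ between animals 1 to 22 and 23 to 43. Named genes are the members, up to 3 called genes with the highest and 3 with the lowest moderated t of each pathway list (given here for the regressions on the thyrotroph score and on animal number), the 3 genes with the highest moderated t in the regression on each member, and marker genes beside a result. Alternatives covered the pseudocount, the filter, the scaling, the averaging of probe sets, animals 43 and 38, covariates and each range of animals. The covariate made from the brightest probe sets was added after seeing the data. Promoter sequences are those of RefSeq on assembly GRCr8, from 250 bases before to 50 after the annotated start, and 8 of the 10 members were matched by symbol. Motifs were searched on both strands. No genome build is attached to the array values.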

Additional observations from a re-analysis of the deposited data

How the results depend on the processing

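Of 142 counts recomputed under 15 alternatives, 91 stayed within 1.5 times the reported count and 51 moved. The pseudocounts of 1 and 64 moved none, nor did averaging all probe sets of a gene or the filter at the 75th percentile, under which the gonadotroph and proliferation fits could not be had. Without the filter, proliferation gave 1 called gene and there were 3 positive pairs. Quantile normalization gave 4 called genes for the thyrotroph score, 0 for Prl (1 at an unadjusted p under 0.05, limma) and 1 negative pair, and subtracting array medians gave 1 negative pair. The 5 positive pairs of the main fits were not among those called under quantile normalization. Without animal 43, Prl gave 1 called gene and there was 1 negative pair. Without animal 38, proliferation gave 1 and there were 3 positive pairs. With the actin and GAPDH differences as covariates, Prl gave 1 and there was 1 negative pair. The cause of these changes was not tested.

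With a step between animals 22 and 23 as a covariate, the limma counts were 0 for the gonadotroph, somatotroph and folliculostellate scores (3, 1 and 3 at an unadjusted p under 0.05), 2 for thyrotroph and 1 for proliferation, with 3 positive and 0 negative pairs. With a smooth trend over animal number they were 0 for the same 3 scores (3, 1 and 1 unadjusted), 4 for thyrotroph, 1 for proliferation and 2 for Prl, with 2 positive and 0 negative pairs. The negative pairs were also 0 unadjusted under both. With the mean of the 100 brightest other probe sets as a covariate, chosen after seeing the data, they were 5 for thyrotroph, 2 for folliculostellate, 0 for proliferation and 0 for Prl (4 and 1 unadjusted), with 1 positive and 1 negative pair. Within animals 1 to 22 all counts of called genes and pairs were 0 with limma, while 1 to 4 genes passed an unadjusted p in 6 of the 7 regressions, 0 in that on proliferation, and 10 positive and 0 negative pairs did. The number of genes above the 90th percentile of spread was 1 there. Within animals 23 to 43 the limma counts were 0 for all regressions but that on Prl and for both kinds of pair, with 0 to 3 genes, 3 positive pairs and 1 negative pair at an unadjusted p. Along Prl, 3 of the genes called over all animals kept their calls there and 1 further gene was called. Animal 43 is in that range. These ranges hold 22 and 21 animals, fewer than the full fit.

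Of the 38 called relations, the sign of the moderated t turned for 7 within animals 1 to 22 and 9 within animals 23 to 43, and for 0 to 4 under the other alternatives. Under quantile normalization it was -1.06 for Cpe with the thyrotroph score, 0.32 for Pcsk2 and -0.57 for Scg2 with Prl, 0.12 for Pcsk2 with Scg2, and -0.47 for Rpl5 with Cpe. With averaged probe sets it was 0.70 for Pam with the gonadotroph score. With the step it was -0.40 for Scg2 with the gonadotroph score, 0.75 for Scg3 with thyrotroph and 0.88 for Pcsk2 with somatotroph, and with the smooth trend -0.21 for Scg2 with gonadotroph and 0.03 for Scg3 with thyrotroph. With the brightest probe sets it was -0.03 for Scg2 with Prl. Within animals 1 to 22 it was 0.00 for Scg2 with gonadotroph, 0.72 for Scg3 with thyrotroph, 0.82 for Pcsk2 and -0.13 for Scg2 with somatotroph, 0.39 for Pcsk2 with Prl, 0.01 for Pcsk2 and 0.59 for Scg3 with number, 0.46 for Rab3d with thyrotroph, and 1.19 for Pcsk7, 1.66 for Pcsk5 and 0.84 for Rab3d with number. Within animals 23 to 43 it was -0.47 for Scg2 with gonadotroph, 0.07 for Pcsk2, 0.27 for Scg3 and -0.57 for Syp with thyrotroph, 0.72 for Pcsk2 and -0.05 for Scg2 with somatotroph, -0.06 for Chgb with folliculostellate, -1.47 for Pcsk1n, 0.62 for Scg3 and 0.20 for Rab3d with number, and -0.18 for Pcsk1n with Scg2. The values of Rpl5, Rab3d, Pcsk7, Pcsk5 and Syp belong to other fits and are not among the 38 relations. Some turned values, such as 0.01 and -0.05, are too near 0 to show a reversed relation. No paired analysis was possible because there was 1 group.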
